A study of Drosophila melanogaster with 48 samples.

Results

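Histone variants and the proteins that place them on DNA were followed in fly testes through 7 genes, taken by name from every deposited file. The 7 genes were His3.3A, His3.3B, His2Av, cid, cal1, Hira and yem, out of 13555 genes named in the files. All 7 were listed in each of the 12 total lysate libraries. In the 36 polysome fraction libraries His3.3B was listed in 36, His3.3A and His2Av in 35, cal1 in 34, cid in 32, Hira in 30 and yem in 23.

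Canonical histones are made in S phase from mRNAs without a poly(A) tail, whereas variant histones come from polyadenylated mRNAs and can be made at any time in the cell cycle. His3.3A and His3.3B encode the same H3.3 protein, which replaces H3 outside replication. His2Av encodes the H2A variant that serves as H2A.Z and H2A.X in flies. The cid gene encodes the centromeric H3 variant (CENP-A), and cal1 encodes the chaperone that loads it at centromeres. Hira and yem (Yemanuclein) encode subunits of the HIRA complex, which deposits H3.3, including on the paternal chromosomes at fertilisation.

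The testes came from bam-/-;hsBam flies. These animals lack bam, which spermatogonia need to become spermatocytes, and carry a heat-shock driven copy of it. Animals were grown at 22 °C, given 30 min at 37 °C in a water bath as pupae and kept at 25 °C afterwards. Lysate was sampled 0, 16, 24, 32, 48 and 72 h after the shock. At 24, 48 and 72 h a polysome gradient was also cut into 6 pools: free RNA, the 40S and 60S subunits, the single ribosome (80S), 2-3 ribosomes and 4+ ribosomes. There were 2 libraries in each group and 48 in all. All groups share the genotype and the shock, so hours after the shock also follow age and recovery, and the 3 cannot be told apart. The labels call the libraries of a group biological replicates and say no more, so p-values measure the spread between these libraries, which may be technical in part. In whole testes, fewer cells of a type and less RNA per cell cannot be told apart.

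The assay (QuantSeq 3′ FWD) reads the 3′ end of each mRNA, so a gene's reads count transcripts and need no correction for length. Levels below are CPM, the reads of a gene set to a fixed library total, after scaling by trimmed means (scaled CPM). Listed reads came to between 12.04 and 20.7 M for a lysate library and between 0.445 and 9.57 M for a fraction library (median 5.53 M). Replicate 2 of the 72 h 60S pool was the lowest, the next held 2.65 M, and its correlation with replicate 1 across genes was 0.344. The lowest correlation between lysate replicates was 0.846. A gene or site was listed from 20 reads in lysate and from 10 in fractions, and "unlisted" below means under that minimum, not absent. Of 11 germ line markers 10 were measured in lysate, all 10 were listed at 72 h, and their summed level was 12912 and 13866 scaled CPM at 72 h against 241 and 199 at 0 h. By limma 6 of the 10 were higher and 2 lower at 72 h than at 0 h, and most of the sum came from Mst84Dd (mean 7365 at 72 h) and 3 more late genes, Mst77F, dj and betaTub85D (1638 to 2511). The mean of aub was 28.8 at 72 h against 95.3 at 0 h, and that of zpg 14.6 against 47.8. Markers of other cell types also moved. The 5 cyst cell markers, all listed at every time, summed to 117 and 114 at 72 h against 85.9 and 130 at 0 h, with a highest value of 288 at 16 h. The 6 muscle markers summed to 934 and 810 at 72 h against 1027 and 1554 at 0 h. The 5 measured of 6 fat body markers summed to 191 and 177 at 72 h, with 3 of them listed, against 118 and 396 at 0 h, with 4 listed. They summed to 1959 and 2074 at 16 h. The 3 haemocyte markers summed to 62.6 and 51.8 at 72 h against 273 and 215 at 0 h, and lay between 3.01 and 10.3 at 16 to 48 h. The 3 pigment and terminal epithelium markers summed to 679 and 615 at 72 h against 648 and 608 at 0 h, and to 32.6 and 21.6 at 16 h. Nearly all of that sum was Amy-p (mean 632 at 72 h and 625 at 0 h). The mean of w was 15.3 at 72 h against 2.59 at 0 h, and st was unlisted at both times. The 4 measured of 5 hub markers summed to 188 and 169 at 72 h against 140 and 255 at 0 h. Among them the mean of Fas3 was 90.9 at 72 h against 179 at 0 h, and that of cad 70.2 against unlisted. The means of hh and Socs36E were 6.82 and 10.3 at 72 h against 5.31 and 13.0 at 0 h. The 5 measured of 6 accessory gland and duct markers ranged from 191 to 1758 over the 12 libraries. The part of these markers in the results below was not tested.

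Over the 3 days after the shock the 7 genes did not move as a group. In lysate His3.3B fell from 32 h on while His3.3A passed no test to 48 h and was higher at 72 h, cal1 rose at 48 and 72 h, yem was higher at 48 h, and cid was higher at 72 h. His2Av and Hira passed no test. With limma and Benjamini-Hochberg adjustment over 10339 genes, 0 of 7 genes were called at 16 h (background 0.890% of all genes tested) and 0 at 24 h (1.61%). The count was 1 at 32 h (12.1%), 3 at 48 h (46.0%) and 4 at 72 h (47.0%), each against 0 h. At 16 h and at 24 h 1 gene, cid, had an unadjusted p under 0.05. At 48 and 72 h the share of members called was close to the share of all genes, so the counts alone set the members apart from nothing. All 5 comparisons share the 0 h libraries. The median log2 change of all genes tested against 0 h was 0.00, -0.10, -0.03, 0.43 and 0.46 at 16, 24, 32, 48 and 72 h. Scaling by total reads moved these medians to 0.44, 0.38, 0.56, 1.15 and 0.64, so every change below is relative to the scaling, and it is stated where this turns a direction.

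**Figure D1:**
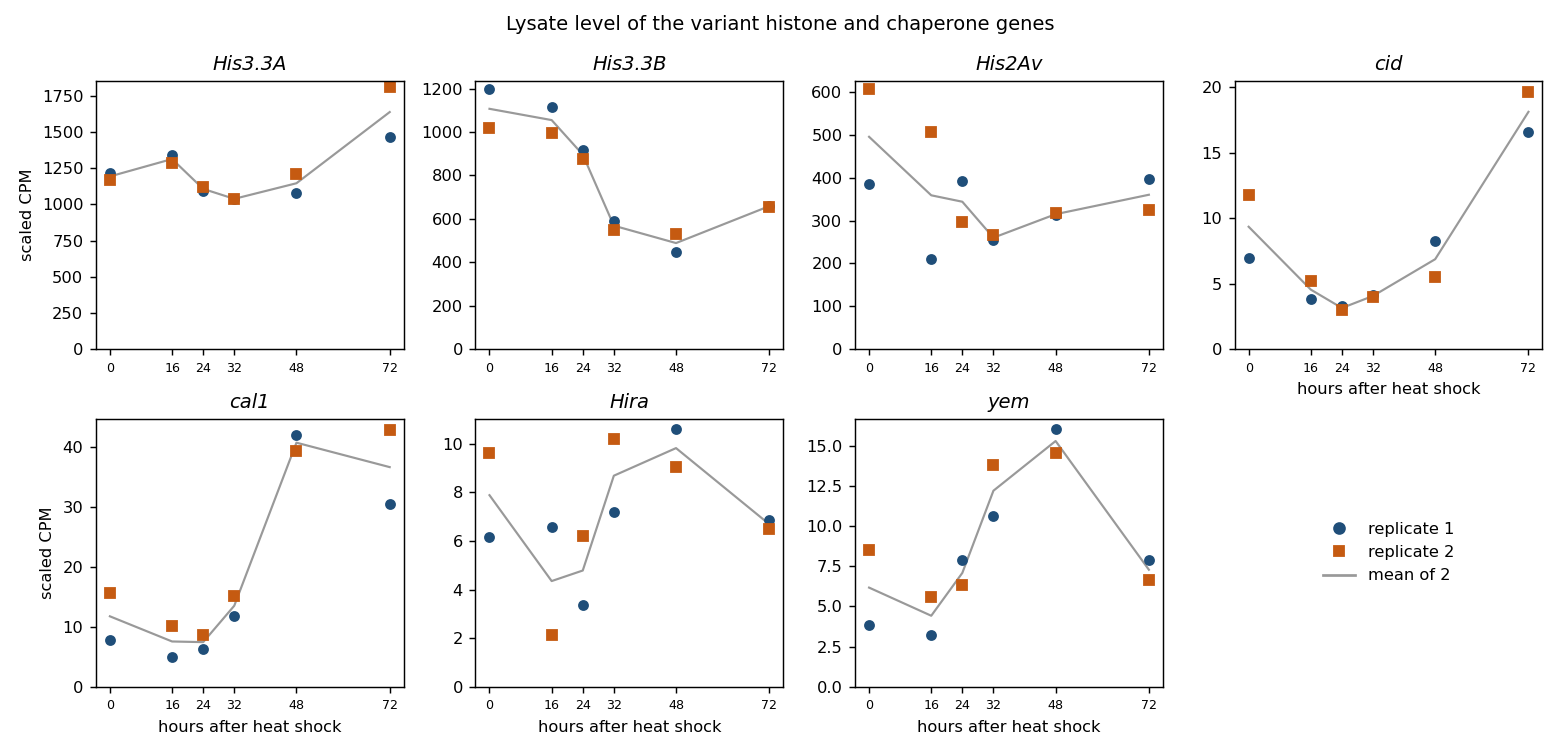
Level of each of the 7 genes in lysate (scaled CPM, each panel with its own axis from 0) against hours after the shock, with a point for each library and a line through the mean of the 2 libraries of a time. His3.3B drops at 32 h and His3.3A does not, cal1 is highest at 48 and 72 h, yem at 48 h and cid at 72 h.

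The H3.3 genes were the most abundant members. His3.3A (FBgn0014857, dm6 2L:5055058-5056149, plus strand) was at 1215 and 1173 scaled CPM at 0 h, 1345 and 1284 after 16 h, 1093 and 1123 after 24 h, 1039 and 1039 after 32 h, 1080 and 1214 after 48 h, and 1464 and 1815 at 72 h. Both 72 h libraries lay above the other 10. His3.3B (FBgn0004828, dm6 X:9152523-9156669, minus strand) was at 1198 and 1017 at 0 h, 1116 and 995 after 16 h, 918 and 874 after 24 h, 588 and 549 after 32 h, 449 and 528 after 48 h, and 661 and 656 at 72 h. All 6 libraries of 32, 48 and 72 h lay below the 6 earlier ones. The 2 genes overlapped at 0 h only, and at each later time both His3.3A libraries were above both His3.3B libraries.

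His3.3B fell by 0.96 ± 0.15 on the log2 scale at 32 h (SE, limma adjusted p = 0.00505), by 1.18 ± 0.15 at 48 h (adjusted p = 1.87e-04), which is 2.26-fold lower, and by 0.74 ± 0.15 at 72 h (adjusted p = 0.00280). These calls held with each library left out in turn. Scaled by total reads the 3 falls were -0.37 (adjusted p = 0.0932), -0.46 and -0.57, so the 32 h call was lost under that scaling. His3.3A was higher by 0.45 ± 0.14 at 72 h than at 0 h (adjusted p = 0.0290), about the median change of all genes (0.46). That call ended without replicate 2 of 72 h (0.29, adjusted p = 0.210). Against 48 h it was higher by 0.51 ± 0.14 at 72 h (adjusted p = 0.0251; 28.4% of all genes were called in that comparison). Scaling by total reads turned this to -0.03, and the call also ended without either 48 h library or replicate 2 of 72 h. With the fit restricted to the groups compared, 0 of 7 members were called at 32 h or 72 h against 0 h.

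The balance of the pair needs no scaling between libraries, since it is a share within a library. His3.3B made up 48.0 ± 2.26% of the reads of both genes at 0 h, 44.5 ± 1.18% after 16 h, 44.7 ± 1.33% after 24 h, 35.4 ± 1.12% after 32 h, 29.8 ± 0.689% after 48 h and 28.8 ± 3.24% at 72 h (SD, n = 2 each). The 95% Wilson interval of a lysate library was at most 1.27 percentage points wide, which covers counting error only. Each library of 32, 48 and 72 h was lower than each library of the earlier times. Taken as the log2 ratio of His3.3B to His3.3A reads, the balance fell with hours over the 12 lysate libraries (Pearson r = -0.919, p = 2.00e-05; Spearman rho = -0.919, p = 1.10e-04; 100000 permutations of the libraries, two-sided). Without the 2 libraries farthest from the median hour, those of 72 h, r was -0.928 (p = 1.10e-04) and rho -0.911 (p = 8.50e-04) over 10 libraries, by the same permutation test. It was the only relation with hours computed, and it was picked after the levels were known. The p-values therefore describe a fall already seen and add no support for it. The permutations moved all 12 libraries freely, although they came from 6 times with 2 libraries each. The 10 libraries are part of the same 12.

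In fractions the share was also lower at 72 h than at 24 h, while 48 h and 72 h were not ordered alike in every pool. His3.3B held 60.7 to 81.7% of H3.3 reads at 24 h (median 74.4% of 12 libraries), 41.6 to 71.1% at 48 h (56.5%, 12 libraries) and 29.1 to 59.3% at 72 h (50.7%, 11 libraries, since replicate 2 of the 72 h 60S pool listed only His3.3B). All 11 libraries of 72 h were below all 12 of 24 h. In the 40S pool the share was 49.0 and 41.6% at 48 h and 50.7 and 51.1% at 72 h, the reverse order of the medians. In the 4+ pool the share was 75.3 ± 1.13%, 58.7 ± 0.650% and 58.2 ± 1.62% at 24, 48 and 72 h, and in the free pool 73.2 ± 2.64%, 57.6 ± 13.8% and 36.8 ± 10.9% (SD, n = 2 each). The 48 h and 72 h libraries of the 4+ pool overlapped. At 24 h all fraction libraries were above both lysate libraries (45.7% and 43.8%), and so they were at 48 h (29.4 and 30.3% in lysate). At 72 h replicate 1 of the free pool (29.1%) lay between the lysate libraries (31.1 and 26.5%), and the others were above both. Lysate and fraction files were made separately and were not tested against each other.

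**Figure D2:**
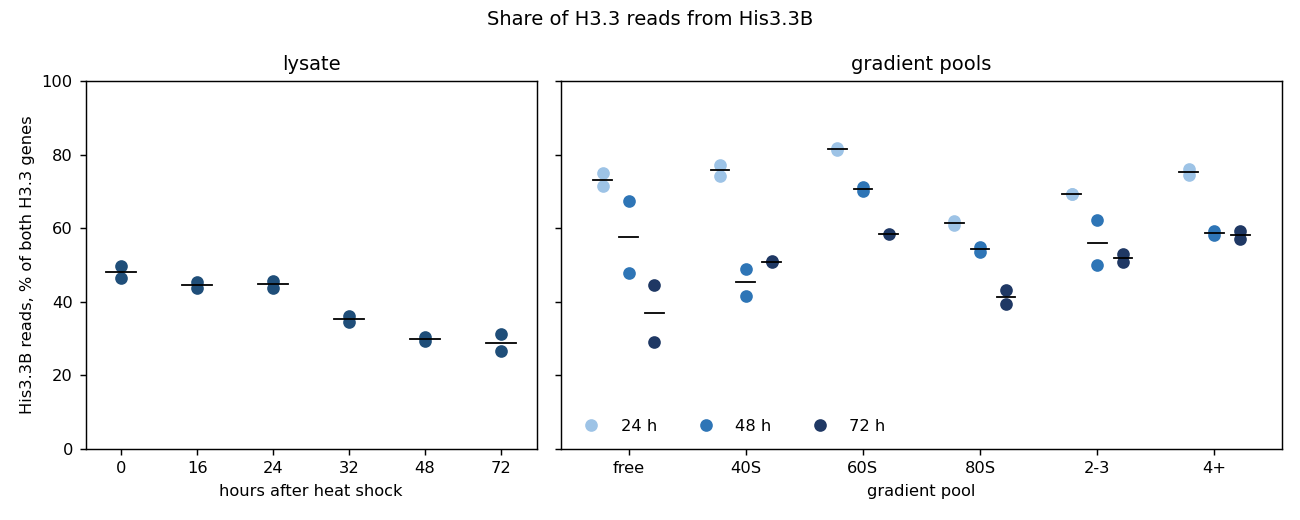
Share of H3.3 reads that came from His3.3B (percent of His3.3A plus His3.3B reads), by hours after the shock in lysate and by gradient pool and time in fractions, with a point for each library and a bar at the mean. Lysate means are 48.0% at 0 h, 35.4% at 32 h and 28.8% at 72 h, and in fractions every 72 h library is below every 24 h library.

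His2Av (FBgn0001197, dm6 3R:26866929-26869220, plus strand) was the third most abundant member at every lysate time. It was at 385 and 606 scaled CPM at 0 h, 211 and 507 after 16 h, 391 and 297 after 24 h, 254 and 266 after 32 h, 313 and 317 after 48 h, and 396 and 324 at 72 h. The 0 h and 16 h replicates were far apart and 72 h overlapped 0 h. No change passed the test, and the estimate at 72 h was -0.43 ± 0.38 on the log2 scale (SE, limma adjusted p = 0.385).

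The centromere pair was rare at the start. At 0 h cal1 and cid were at 11.7 ± 5.57 and 9.33 ± 3.38 scaled CPM (SD, n = 2), and their ranges overlapped. The CID loader gene cal1 (FBgn0038478, dm6 3R:17088280-17091938, plus strand) was at 7.80 and 15.7 at 0 h, 4.90 and 10.2 after 16 h, 6.30 and 8.57 after 24 h, 11.8 and 15.2 after 32 h, 42.04 and 39.4 after 48 h, and 30.5 and 42.8 at 72 h. The 4 late libraries lay above the other 8. It rose by 1.88 ± 0.39 on the log2 scale at 48 h (3.67-fold, SE, limma adjusted p = 0.00426) and by 1.70 ± 0.41 at 72 h (3.25-fold, adjusted p = 0.00760), above the medians of all genes. Both calls held with each library left out and with total reads (2.60 and 1.89). The 72 h call ended when only the groups compared were fitted (1.83, adjusted p = 0.0585).

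The cid gene itself (FBgn0040477, dm6 2R:13485617-13486631, plus strand) followed another course. It was at 6.95 and 11.7 at 0 h, 3.85 and 5.22 after 16 h, 3.31 and 2.95 after 24 h, 4.12 and 3.99 after 32 h, 8.21 and 5.51 after 48 h, and 16.6 and 19.6 at 72 h. Both 72 h libraries were the highest of all, and the 16 to 32 h libraries were below both 0 h libraries. At 72 h it was higher by 0.99 ± 0.33 than at 0 h (SE, limma adjusted p = 0.0358) and by 1.44 ± 0.32 than at 48 h (2.72-fold, adjusted p = 0.00859). The change at 24 h, -1.52 ± 0.36, did not pass (adjusted p = 0.0898). The call at 72 h against 0 h ended without replicate 1 of 0 h (0.62) or without either 72 h library (1.12 and 0.88), and that against 48 h without replicate 2 of 48 h (1.13) or of 72 h (1.34). At 72 h the cid values rested on 256 and 268 reads.

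The HIRA complex genes were the least abundant members at 72 h. Hira (FBgn0022786, dm6 X:7722119-7725917, plus strand) was at 6.17 and 9.61 at 0 h, 6.58 and 2.13 after 16 h, 3.38 and 6.19 after 24 h, 7.20 and 10.2 after 32 h, 10.6 and 9.04 after 48 h, and 6.87 and 6.52 at 72 h. No time was apart from 0 h, and the estimate at 72 h was -0.20 ± 0.55 (SE, limma adjusted p = 0.783). Its partner yem (FBgn0005596, dm6 3R:29118330-29122879, minus strand) was at 3.82 and 8.52 at 0 h, 3.23 and 5.61 after 16 h, 7.86 and 6.31 after 24 h, 10.6 and 13.8 after 32 h, 16.0 and 14.5 after 48 h, and 7.90 and 6.66 at 72 h. The 32 and 48 h libraries lay above all the others, and 72 h overlapped 0 h. The rise at 48 h was 1.40 ± 0.39 on the log2 scale (2.63-fold, SE, limma adjusted p = 0.0172). It was lost without replicate 1 of 0 h or either 48 h library. At 72 h the change against 48 h was -1.06 ± 0.39, which did not pass (adjusted p = 0.0782).

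**Figure D3:**
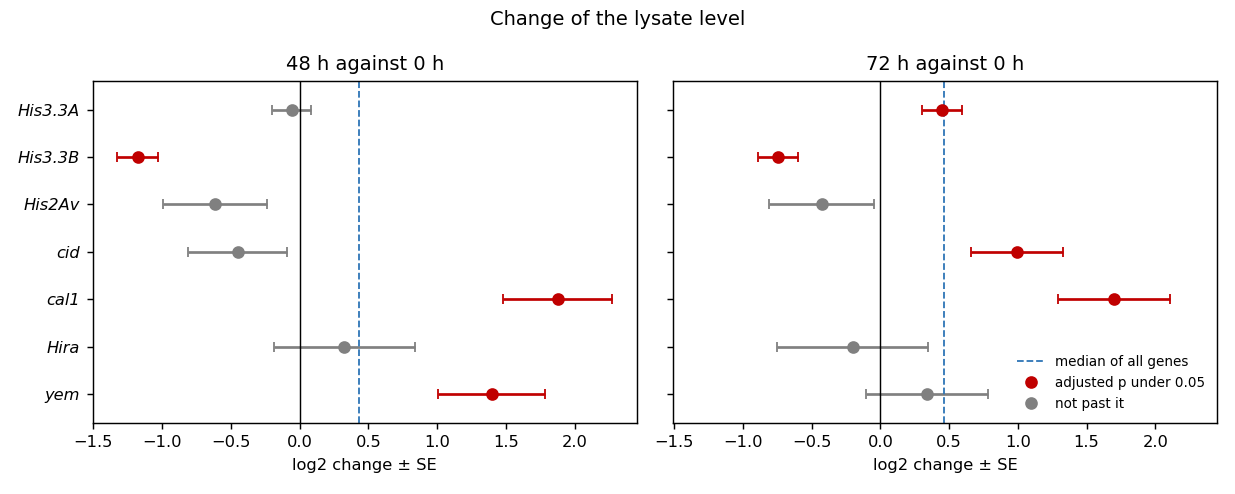
Log2 change of each gene's lysate level at 48 h and at 72 h against 0 h, with standard errors from limma. Red points passed the adjusted threshold of 0.05, grey points did not, and the dashed line is the median of all genes (0.43 and 0.46). His3.3B is the lowest and cal1 the highest of the 7 in both panels.

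Across the 12 lysate libraries the levels of His3.3B and yem ran opposite (r = -0.88 on log2 scaled CPM), as did His3.3B and cal1 (r = -0.77), while His3.3A and cid ran together (r = 0.70) and His3.3A with His3.3B hardly at all (r = 0.14). These are descriptions over libraries that share their times and scaling. Among 6236 genes listed in all 12 libraries the closest in pattern to His3.3B were Rac2 (r = 0.985) and Nc73EF (0.982), to yem CSN5 (0.952) and Pol32 (0.942), to cal1 CG9288 (0.967) and CG42518 (0.965), and to cid CG18769 (0.957) and CG8908 (0.946). His3.3A was closest to Pka-R2 (0.925) and CG14968 (0.923), His2Av to CG31145 (0.931) and cno (0.898), and Hira to CG16734 (0.849) and ida (0.833).

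Around the members, the other genes of these pathways were counted in lysate at 72 h against 0 h, from lists chosen with earlier results of these data known. Of 14 further H3 and H4 chaperones 12 were measured, 0 were higher and 3 lower, with a median log2 change of -0.09 against 0.46 for all genes (35.6% of all genes were called higher and 11.4% lower). They were Caf1-180, the large subunit of the replication-coupled H3 and H4 chaperone CAF-1 (-1.80 ± 0.44, SE; 9.85 and 11.6 scaled CPM at 72 h against 47.2 and 29.0 at 0 h), Nasp, listed as CG8223 (-0.94 ± 0.34) and the nucleoplasmin Nlp (-0.71 ± 0.17). Of 15 genes of the DOM and Tip60 complexes, which exchange H2Av, 15 were measured, 6 were higher and 2 lower, with a median of 0.78. The largest changes were in Tip60, an acetyltransferase (3.45 ± 0.59; 22.9 and 22.5 at 72 h against 4.92 and unlisted at 0 h), Ing3 (2.81 ± 0.92; 20.7 and 23.6 against unlisted and 11.9), and the ATPase rept (2.00 ± 0.23; 714 and 710 against 225 and 140). The 2 lower genes were dom itself (-1.42 ± 0.29; 34.3 and 34.0 at 72 h against 71.1 and 118 at 0 h) and Nipped-A (-0.62 ± 0.20). Among 10 centromere and kinetochore genes 4 were higher and 1 lower, with a median of 0.44. Mis12 was higher (3.68 ± 1.01; 45.1 and 22.4 against unlisted and 7.51), as was Nuf2 (1.28 ± 0.27), and ppa was lower (-1.34 ± 0.33), with 3.43 and 3.07 scaled CPM at 72 h against 7.96 and 8.60 at 0 h. BigH1, the germ line linker histone, was at 78.4 and 102 at 72 h against 3.67 and unlisted at 0 h (5.63 ± 0.65), while His4r, the replacement H4 gene, was not called at 72 h. Folds of genes with an unlisted library depend on the 10 reads entered for it. The adjusted p was under 0.05 by limma for each of these named as higher or lower.

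Every member has more than 1 listed 3′ end site, and distances below are counted from the stop codon. In His3.3A 98.9% of lysate reads ended at 241 nt (2L:5056000 in dm6), near the annotated UTR end at 236 nt. His3.3B used mainly 1523 nt (92.6%; X:9152589), with a short form at 229 nt in lysate (4.42%; listed at 267 nt, X:9153845, in fractions, with 3.68% of reads). In fractions sites at 740 nt (X:9153372) and 1190 nt (X:9152922) held 3.50 and 7.40%, and the main site held 83.7%. In lysate 740 nt held 0.656% and a site at 1202 nt held 1.27%, each listed in all 12 libraries. His2Av used a region around 298 nt (83.8%, near the annotated end at 322 nt) and 576 nt (15.4%; 3R:26869162) in lysate. In fractions its reads were listed at 177 nt (36.9%, in 24 libraries), 258 nt (12.8%, in 11), 317 nt (31.6%, in 29) and 576 nt (18.1%, in 35). Replicates could differ in the listed position: in the 80S pool at 24 h 258 nt had 683 reads and unlisted, and 177 nt unlisted and 671. In every library the smallest gap between listed sites of an entry was 51 nt, so nearby ends may be listed under 1 position. For His2Av, a difference in the ends used and a difference in how ends were listed cannot be told apart. The cid reads ended at 153 nt (71.0%; 2R:13486521) or 269 nt (29.0%; 2R:13486637, 6 nt past the annotated end). The cal1 reads ended at 65, 139, 415 and 543 nt (22.7, 29.9, 31.9 and 14.3%; 3R:17091463, 3R:17091537, 3R:17091813 and 3R:17091941), the last 3 nt past the annotated end. Hira used 83 and 166 nt (28.2 and 71.8%; X:7725828 and X:7725911), and yem 190 and 256 nt (96.7 and 3.29%; 3R:29118395 and 3R:29118329). Site positions were taken from the fraction files, which are in dm6, while lysate positions were not.

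Late cal1 mRNA ended closer to the stop codon. The 65 nt site was unlisted in all libraries of 0 and 16 h, had 23 reads in 1 library at 24 h and 30 in 1 at 32 h, 176 and 384 at 48 h, and 132 and 160 at 72 h. The 139 nt site was unlisted in all libraries to 24 h and had 79 and 38 reads at 32 h, 279 and 364 at 48 h, and 190 and 241 at 72 h. The 2 distal sites were listed at 0 h with 100 and 186 reads together in the 2 libraries. Split midway between the most used sites, at 277 nt, the proximal share of listed cal1 reads was 0 in all 4 libraries of 0 and 16 h, and 7.77 ± 10.99% after 24 h, 34.9 ± 2.64% after 32 h, 70.8 ± 5.71% after 48 h and 68.5 ± 0.0257% after 72 h (SD, n = 2 each). The 4 earliest libraries held 79 to 186 listed cal1 reads each. A proximal site with under 20 reads would not show there, so the 0 is not a measured absence. In scaled CPM the proximal part was at 20.9 and 29.4 at 72 h and unlisted at 0 h, while the distal part was at 9.59 and 13.5 at 72 h against 7.80 and 15.7 at 0 h, which overlap. Of the 2 parts of cal1, the proximal part alone was higher at 72 h without overlap.

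The ratio of proximal to distal reads at the 2 most used cal1 sites was 3.89 ± 0.79 higher on the log2 scale at 72 h than at 0 h (SE, limma adjusted p = 0.00700). It depends on the 10 reads entered for the unlisted site at 0 h and is no bound. With all sites split midway, an alternative added after the data were seen, it was 4.90. His3.3B also moved to its proximal site, by 1.47 ± 0.36 (adjusted p = 0.0117), with 3.66 ± 0.220% of its reads before the midpoint at 876 nt at 0 h, 2.81 ± 0.753% after 16 h, 4.41 ± 1.36% after 24 h, 7.07 ± 0.177% after 32 h, 7.28 ± 0.959% after 48 h and 8.69 ± 0.179% at 72 h (SD, n = 2 each). Its proximal part was at 58.3 and 56.2 scaled CPM at 72 h against 45.7 and 35.6 at 0 h, and its distal part at 603 and 600 against 1152 and 981. The distal part was lower and the proximal part higher, without overlap in either. The proximal part includes the 740 nt site, with 94 reads at 72 h against 171 at 0 h, beside 1546 against 836 at 229 nt. In all 2 of 6 members tested changed (background 25.0% of 3873 genes, 22.4% toward proximal, median log2 change of all genes tested 0.60). Both calls ended when only the groups compared were fitted (adjusted p = 0.0563 for His3.3B and 0.0530 for cal1), and His3.3B also without either 72 h library. With sites joined within 25 nt, which by construction splits its ends near 229 nt, the change of His3.3B turned negative here and over the pools.

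The other 4 members tested did not pass. At 72 h against 0 h the proximal share was 82.6 ± 5.51% against 69.2 ± 19.9% in His2Av (log2 ratio 1.00, adjusted p = 0.398), 84.7 ± 2.11% against 61.5 ± 25.0% in cid (1.67, adjusted p = 0.205) and 36.7 ± 4.18% against 11.4 ± 16.1% in Hira (1.42, adjusted p = 0.207; SD, n = 2 each). In yem, whose 256 nt site was listed in 2 lysate libraries only, the ratio was 1.64 higher (adjusted p = 0.285). The 0 h replicates of His2Av, cid and Hira were far apart. In Hira the 83 nt site was unlisted in replicate 1 of 0 h and had 26 reads in replicate 2, so that share depends on the listing minimum. The 72 h libraries lay above both 0 h libraries in cid (79.1 and 43.8% at 0 h) and Hira, and overlapped them in His2Av. His3.3A was not tested because its minor site held under 5% of reads.

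**Figure D4:**
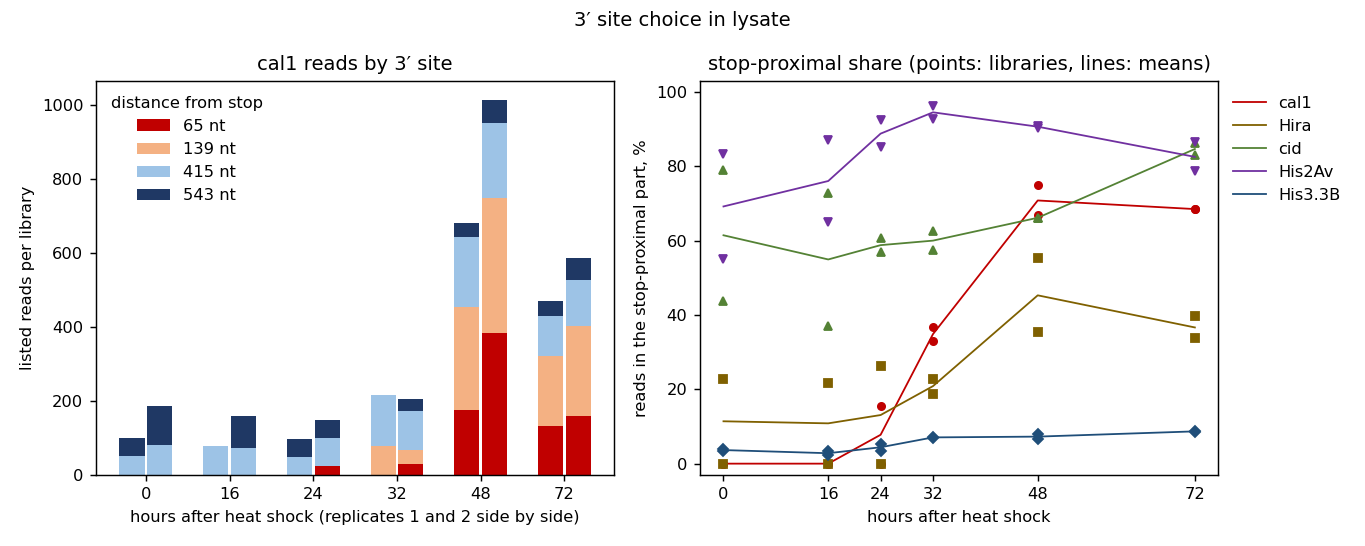
Listed reads at the 4 most used cal1 3′ end sites in each lysate library (left, stacked), and the percent of reads before the midpoint of the 2 most used sites of 5 members (right, points for libraries and lines through means), by hours after the shock. The 65 and 139 nt sites of cal1 are unlisted at 0 and 16 h, and its proximal share is 70.8% at 48 h and 68.5% at 72 h.

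In fractions the tests of site choice between 72 h and 24 h, averaged over the 6 pools, called 1 of 2 members tested (background 46.5% of 1997 genes, 41.6% toward proximal, median 0.84). It was His3.3B, whose ratio was 2.12 ± 0.24 higher (SE, limma adjusted p = 7.90e-08), with a median proximal share over libraries of 13.1% at 72 h against 5.40% at 24 h. That share counts every site before 876 nt, so it includes the 740 nt site, which had 2039 reads at 72 h against 2977 at 24 h, while the 267 nt site had 3714 against 2016. His2Av was at -0.996 ± 0.68 (limma adjusted p = 0.240), with shares of 81.3% at 72 h against 73.7% at 24 h. Its sites before the midpoint were listed mainly at 177, 258 and 317 nt there. The tested pair, 298 and 576 nt, took reads within 50 nt of either site. It therefore left out the 177 nt site, which held 36.9% of the His2Av reads in fractions. Split midway, 4 members were called: His3.3B 1.58, His2Av 0.80 (adjusted p = 0.0110), cid 2.65 (adjusted p = 7.83e-04) and cal1 3.38 (adjusted p = 9.70e-05), by limma with 49.6% of genes called. The cid and cal1 calls rest on few reads and depend on the 5 reads entered for an unlisted part. For cid the pools together held 170 proximal and 256 distal reads at 24 h, and 752 and 175 at 72 h. The pooled proximal share of cal1 was 11.6% at 24 h (88 proximal and 670 distal reads), 63.7% at 48 h (830 and 473) and 54.7% at 72 h (465 and 385). Between the 4+ and free pools no member's site choice was called at 24, 48 or 72 h (0 of 4, 0 of 3 and 0 of 4 tested by limma, background 5.16, 1.68 and 3.57%). At unadjusted p under 0.05 1 member, cid, passed at 24 h and at 72 h, in opposite directions (3.88 and -3.09).

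Ribosome loading was compared between the 4+ pool, with the largest polysomes, and the free and 80S pools. In the fit of all 36 fraction libraries by limma none of the 7 members was called in any of 9 comparisons. The background was 5.86, 10.9 and 26.6% of 10777 genes for 4+ against free at 24, 48 and 72 h, 3.25, 2.64 and 6.12% for 4+ against 80S, 19.8% for 72 h against 24 h in the 4+ pool, 32.5% in the free pool, and 6.39% for the change in 4+ against free between 72 h and 24 h. Between 0 and 2 members had an unadjusted p under 0.05 in a comparison. That fit includes replicate 2 of the 72 h 60S pool, which listed neither His3.3A nor His2Av. A fit without the 72 h 60S pool, added after the data were seen, is given below beside it. Only the 3 histone genes were listed with a mean of 100 reads or more in the libraries compared.

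In scaled CPM both H3.3 mRNAs stood lower in each 4+ pool library than in each free pool library of the same time, although neither passed the test over all 36 libraries, and for His3.3B the direction depended on the scaling. In that fit the median log2 change of all genes was -0.44, -0.21 and -0.13 at 24, 48 and 72 h. The values were -0.78, -1.12 and -1.56 for His3.3A and -0.62, -1.08 and -0.29 for His3.3B. A lower level in the 4+ pool is thus not particular to them, and no share of all genes without overlap is given. His3.3A was at 237 and 223 scaled CPM in the 4+ pool against 375 and 418 in the free pool at 24 h, 471 and 439 against 1433 and 683 at 48 h, and 583 and 506 against 2185 and 1178 at 72 h. The pools did not overlap at any time. His3.3B was at 696 and 712 against 1128 and 1040 at 24 h, 657 and 636 against 1316 and 1408 at 48 h, and 774 and 738 against 896 and 946 at 72 h, again without overlap. His2Av was at 107 and 118 against 219 and 207 at 24 h, 151 and 145 against 309 and 371 at 48 h, and 187 and 191 against 180 and 356 at 72 h, where the pools overlapped. Set to total reads instead, His3.3B was at 980 and 969 CPM in the 4+ pool against 1066 and 836 in the free pool at 24 h, which overlap, and at 857 and 883 against 533 and 691 at 72 h, the reverse order. The log2 changes of His3.3B turned to 0.046 at 24 h and 0.52 at 72 h under that scaling, and that of His2Av to 0.40 at 72 h. His3.3A kept its direction at each time but its pools overlapped at 48 h (613 and 580 against 1233 and 423).

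Without the 72 h 60S pool, His3.3B at -0.73 ± 0.21 (adjusted p = 0.0183) and His2Av at -1.03 ± 0.31 (adjusted p = 0.0210) passed for 4+ against free at 24 h by limma (SE; background 15.8%, median of all genes -0.55), in the comparison where scaling by total reads turned His3.3B to 0.046. At 48 h His3.3A at -1.16 ± 0.33, His3.3B at -1.09 ± 0.22 and His2Av at -1.20 ± 0.31 passed (adjusted p = 0.0109, 5.89e-04 and 0.00516; background 21.6%, median -0.22). At 72 h His3.3A at -1.74 ± 0.31 passed (adjusted p = 5.70e-05; background 39.0%, median -0.29). Against the 80S pool 3 members passed at 24 h (background 11.5%): His3.3A at -1.59 ± 0.33 (adjusted p = 0.00162; 237 and 223 in the 4+ pool against 692 and 710 in the 80S pool), His3.3B at -0.65 ± 0.21 (adjusted p = 0.0467) and yem at -2.29 ± 0.71 (adjusted p = 0.0339). The yem value rests on 12 and 39 reads in the 80S pool and none listed in the 4+ pool, so it depends on the 5 reads entered for an unlisted library. None passed against 80S at 48 h (background 8.10%) or 72 h (20.8%), with 2 and 0 members at an unadjusted p under 0.05.

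Over time the calls within pools depended on the 72 h 60S pool. With all 36 libraries His3.3A was at 1.24 ± 0.97 in the 4+ pool (limma adjusted p = 0.470) and at 2.02 ± 0.97 in the free pool (adjusted p = 0.114) at 72 h against 24 h (SE). Without that pool it was higher by 1.27 ± 0.33 at 72 h than at 24 h in the 4+ pool (adjusted p = 0.00416; background 28.0%, median 0.25) and by 2.12 ± 0.32 in the free pool (adjusted p = 2.85e-06; 43.0%, median 0.27), by limma (SE). His3.3B was at 0.14 ± 0.22 and -0.15 ± 0.22 in the same comparisons (adjusted p = 0.716 and 0.622), and total reads turned its change in the 4+ pool to -0.16. The cid gene was higher in the 4+ pool by 2.62 ± 0.88 (adjusted p = 0.0259), with 64 and 92 reads at 72 h against unlisted and 38 at 24 h, and at 2.58 (adjusted p = 0.0510) with all 36 libraries. The change in loading between the times, 4+ against free at 72 h minus that at 24 h, passed for 0 of 7 members in both fits (background 14.5% without the 72 h 60S pool, unadjusted p under 0.05 for 0), with -0.85 ± 0.46 for His3.3A. Germ line markers moved with these pools too. Their sum was 5465 and 7805 scaled CPM in the 4+ pool against 43211 and 29952 in the free pool at 72 h, whereas the median log2 change of the 11 markers was 1.77 (5 higher and 3 lower), the opposite sign. Their part was not tested.

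**Figure D5:**
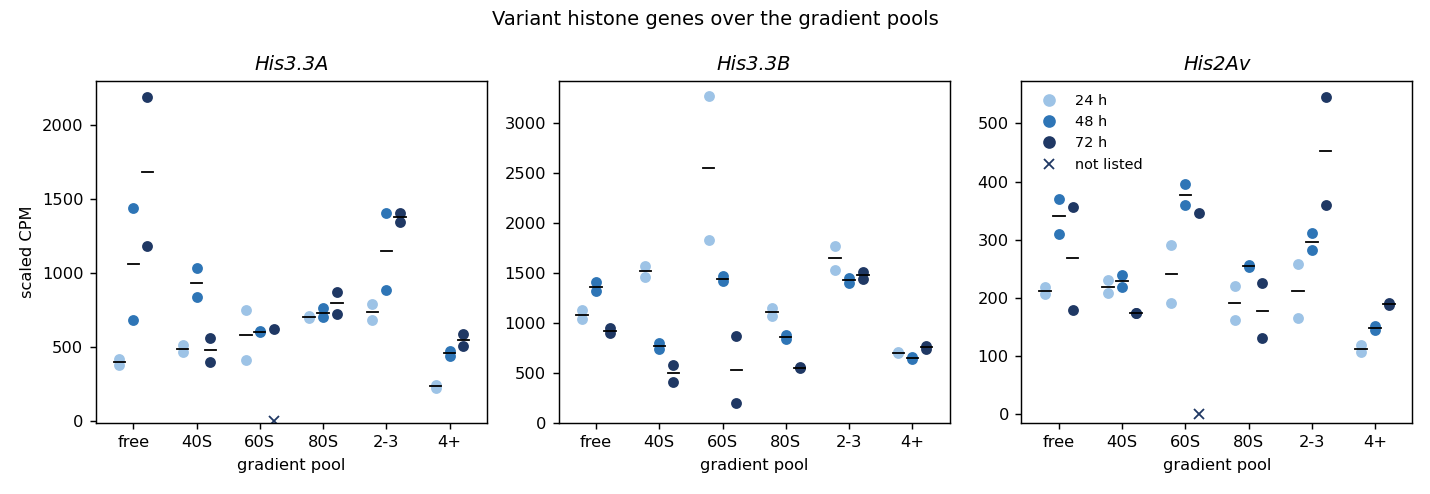
Level (scaled CPM, each panel with its own axis) of His3.3A, His3.3B and His2Av in the 6 gradient pools at 24, 48 and 72 h, with a point for each library, a bar at the mean and a cross for an unlisted library. At each time the 4+ pool libraries are below the 2-3 ribosome pool libraries for all 3 genes.

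The rarer members were near the listing minimum in fractions. Over the 36 libraries the median was 40.5 reads for cid, 62.5 for cal1, 22.5 for Hira and 12 for yem. In the 40S pool at 48 h cal1 was at 50.1 and 31.7 scaled CPM, against 17.9 and 4.77 in the free pool, and 10.6 and 9.40 in the 4+ pool. The 60S pool of that time, at 56.7 and 39.1, overlapped the 40S pool. Hira was at 11.1 and 16.0 in the 80S pool at 72 h, above its 4+ pool level of 3.77 and 4.27 and its 40S pool level of 3.94 and 2.34, and overlapping the 2-3 ribosome pool at 7.20 and 17.2. At 24 h yem was listed in 4 of 12 libraries.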

How the data were processed

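Each deposited file lists codon positions, a protein name and pairs of cleavage site position and read count packed as text, so counts have no column of their own. Per the labels the kit was QuantSeq 3′ FWD, and the submitters' processing notes name Bowtie 0.12.8 and the dm6 build. No deposited count lies under 20 in a lysate file or under 10 in a fraction file. In fraction files 99.92% of plus-strand codon positions matched a dm6 stop codon within 3 nt, and 99.46% of minus-strand ones a start codon, for which the annotated stop codon of the gene was used. In lysate files 24.06% (plus) and 23.02% (minus) matched a stop codon. Positions are therefore printed from fraction files alone, and sites of the 2 kinds of file were matched through their distance to the stop codon (within 50 nt). FlyBase names came from the files and the reference gene table.

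Counts were summed per gene in Python 3.11.15 and scaled by trimmed means (lysate factors 0.724 to 1.30, fraction factors 0.595 to 2.94). Tests used R 4.3.3 and limma 3.58.1 (voom, robust moderated statistics, Benjamini-Hochberg threshold 0.05). The design named a count model for plain counts in a column of their own, and the packing led to limma alone. Genes listed in both libraries of a group were tested, with unlisted genes entered at 10 reads (lysate) or 5 (fractions). The lowest listed count corresponds to 0.744 to 1.69 scaled CPM in lysate and 1.17 to 7.64 in fractions. For site choice, log2(proximal/distal) of the 2 most used sites was tested where the minor site held 5% or more, in lysate libraries with 60 and fraction libraries with 30 or more reads at both sites. All libraries of a kind shared the spread. The scripts were tested on simulated data. Members and lists were chosen with earlier results of these data known. The rule for named genes took all 7 members, the up to 3 largest called changes of each list at 72 h and the 2 genes most like each member. The 2 lower genes of the DOM and Tip60 list were named in addition. In fractions a member's alternatives were computed where every library compared listed it with a mean of at least 100 reads, a limit chosen after the data were seen.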

Additional observations from a re-analysis of the deposited data

Results flagged for a closer look

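For 2 members the 4+ pool and the 80S pool stood in the opposite order at different times, in every library, in scaled CPM. No share of all genes with such a reversal is given beside this count, so it does not set these members apart. With total reads for scaling part of this order was lost. For His3.3B the 4+ pool was lower at 24 h (696 and 712 scaled CPM in the 4+ pool against 1070 and 1154 in the 80S pool) and at 48 h (657 and 636 against 844 and 877), and higher at 72 h (774 and 738 against 562 and 545). The log2 change of 4+ against 80S was 0.86 higher at 72 h than at 48 h and 1.11 higher at 72 h than at 24 h. With total reads the 48 h order was reversed (854 and 839 in the 4+ pool against 578 and 663 in the 80S pool), while 24 h and 72 h kept theirs. Tests of these differences by limma did not pass (adjusted p = 0.9997 and 0.702 with all 36 libraries, and 0.386 and 0.0765 without the 72 h 60S pool).

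For cal1 the 4+ pool was above the 80S pool at 24 h (7.26 and 20.7 in the 4+ pool against 5.64 and 7.20 in the 80S pool), below it at 48 h (10.6 and 9.40 against 19.2 and 16.1) and below it at 72 h (3.77 and 15.1 against 16.6 and 18.4). The log2 change was -1.73 at 48 h minus 24 h and -2.05 at 72 h minus 24 h, and neither difference passed by limma (adjusted p = 0.99998 and 0.710). With total reads the cal1 pools overlapped at 48 h (13.8 and 12.4 in the 4+ pool against 13.2 and 12.2 in the 80S pool) and at 72 h (4.18 and 18.1 against 15.7 and 20.4). These cal1 values rest on 22 to 155 reads a library. Separation in every library of 2 groups of 2 is a weak criterion, and the low depth limits what the cal1 values show.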

How the results depend on the processing

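Of the member values recomputed with whole groups, 529 kept their direction and side of the threshold, 34 changed direction, 11 lost a call and 30 gained one. With a library left out, 355 kept both, 22 changed direction, 14 lost a call and 5 gained one. The cause of these changes was not tested unless named. Every lysate call of His3.3B at 48 h and of cal1 at 48 h held under every alternative run.

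With total listed reads for scaling, log2 changes in lysate turned to 0.37 for His3.3B and 0.011 for yem at 16 h, 0.37 for His3.3A and 0.18 for His3.3B at 24 h, 0.39 for His3.3A at 32 h, 0.66 for His3.3A, 0.10 for His2Av and 0.27 for cid at 48 h, all against 0 h, and to -0.033 for His3.3A, -0.11 for His3.3B and -0.35 for His2Av at 72 h against 48 h, where 1 member was called. In fractions they turned to 0.046 (24 h) and 0.52 (72 h) for His3.3B and 0.40 (72 h) for His2Av in 4+ against free, to 0.19, 0.45 and 0.083 for His3.3A, His3.3B and His2Av in 4+ against 80S at 48 h, and to -0.16 for His3.3B (4+ pool) and -0.17 for His2Av (free pool) at 72 h against 24 h, with 1 member called in the free pool. With median of ratios they turned to -0.012 for His2Av (4+ against 80S, 72 h), -0.058 and 0.032 for His3.3B (4+ and free pool over time) and -0.090 for its change in loading, with 1 member called in the free pool.

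When only the groups compared were fitted, 0 members were called in lysate at 32 h and at 72 h against 0 h, and His2Av turned to -0.014 at 72 h against 48 h. In fractions 3, 2 and 1 members were then called for 4+ against free at 24, 48 and 72 h, 2, 2 and 1 for 4+ against 80S, and 2 each for the 4+ and free pools over time, with His3.3B at 0.074 in the free pool. Unlisted genes entered at 0 gave 1 call for 4+ against 80S at 24 h and 1 for the 4+ pool over time, and entered at the minimum minus 1 they gave 1 for the 4+ pool. Without the 72 h 60S pool 2, 3 and 1 members were called for 4+ against free, 3 for 4+ against 80S at 24 h, 2 for the 4+ pool and 1 for the free pool.

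In site choice, joining within 25 nt splits the 229 and 267 nt ends of His3.3B by construction and gave -4.80 in lysate and -1.89 over the pools, with 0 members called there, and -0.32, -6.18 and 1.91 for His2Av (4+ against free at 48 h and 72 h, and 72 h against 24 h). A minor site of at least 10% left 1 call in lysate, since His3.3B then drops out, and only the groups compared left 0. Only the groups compared gave 1 call for 4+ against free at 72 h. Sites split midway gave 1 call for 4+ against free at 24 h and 4 over time, with His2Av at -0.020 and -0.31 for 4+ against free at 48 h and 72 h and 0.80 over time. Without the 60S pools 2 members were called over time and His2Av was at 0.068.

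With a library left out, lysate ranges were -0.18 to 0.062 (His3.3B), -1.19 to 0.088 (His2Av) and -0.99 to 0.16 (yem) at 16 h, -0.26 to 0.88 (yem) at 24 h, -0.23 to 0.77 (cal1) and -0.17 to 0.46 (Hira) at 32 h, -0.15 to 0.024 (His3.3A) at 48 h, -0.22 to 0.92 (yem) and -0.51 to 0.12 (Hira) at 72 h, and -0.41 to 0.078 (cal1) at 72 h against 48 h. Counts ranged 0 to 1 at 24 h, 1 to 2 at 32 h, 2 to 4 at 72 h and 0 to 2 at 72 h against 48 h. In fractions the ranges were -0.91 to 0.076 (4+ against free, 72 h), -0.25 to 0.44 (4+ against 80S, 72 h) and -0.24 to 0.74 (free pool over time) for His2Av and -0.028 to 0.12 for His3.3B (4+ pool), with 0 to 1 calls for 4+ against free at 24 h and for the 4+ pool. For site choice they were -0.031 to 2.03 in lysate, -0.68 to 0.87 and -1.52 to 6.96 for 4+ against free at 48 and 72 h, and -2.14 to 0.024 over time, all in His2Av, with 1 to 2 calls in lysate and 1 to 2 over time.

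The replicate block changed no call but 1: the 4+ pool over time had 1 member called with it. Replicate numbers do not pair the libraries by the labels, and the correlation of replicate differences between groups was -0.094 to 0.27 over 14 pairs of groups. The planned count-model alternatives were not run, because the design kept them for plain counts in a column of their own. The values unpacked and summed per gene are nonetheless read counts. In fractions the listing minimum limits cid, cal1, Hira and yem, whose median was under 100 reads.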
